A study of Homo sapiens with 17 samples.

Results

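The 10 Fanconi anemia genes described here are FANCA, FANCB, FANCC, FANCE, FANCF, FANCG, FANCL and FANCM, which encode the core complex, and FANCI and FANCD2, which encode the pair of proteins that the core complex modifies. They were chosen by their place in the pathway, though with earlier results of these data known, and are 10 of 17283 genes with any count in the series. HEK293 cells, a human embryonic kidney line, were electroporated with ribonucleoproteins of Cas9 or of catalytically dead dCas9, and ribosome footprints and mRNA were sequenced 36 or 72 h later. Every group received 300 pmol of nuclease and 300 pmol of the same guide per electroporation according to the labels, and the guide targets an intron of JAK2, so the groups differ in whether the nuclease can cut. The groups were Cas9 mRNA at 36 h with 3 libraries, and dCas9 mRNA at 36 h, both footprint groups at 36 h and all 4 groups at 72 h with 2 libraries each, 17 in all. The guide was synthetic at 36 h and transcribed in vitro at 72 h, and each replicate was 1 plate into which several electroporations were pooled, so cells that were and were not cut cannot be told apart within a library.

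Fanconi anemia proteins repair interstrand DNA crosslinks, in which both strands are covalently joined. The core complex is a ubiquitin ligase in which FANCL carries the catalytic domain, FANCB and FANCL form a module with FAAP100, FANCA and FANCG form another with FAAP20, FANCC, FANCE and FANCF form another that binds FANCD2, and FANCM anchors the complex on DNA. Its target, the dimer of FANCI and FANCD2, is ubiquitinated when replication forks stall at a crosslink and then recruits nucleases, and the same pathway takes part in the choice of repair after a Cas9 cut with a single-stranded donor.

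The genes differ in base composition, with which differences between several replicate libraries below moved, so a stretch of 60 coding bases is shown for the members with the least and the most G and C. Each stretch is the middle of the longest coding exon of the counted transcript, read 5′ to 3′ on the strand of the gene (hg38, GENCODE release 44), with G and C in capitals. The FANCB stretch lies in exon 2 on the minus strand, chrX:14865006-14865065, and the FANCM stretch in exon 14 on the plus strand, chr14:45175994-45176053. The FANCE stretch lies in exon 2 on the plus strand, chr6:35456020-35456079, and the FANCF stretch in exon 1 on the minus strand, chr11:22625220-22625279.
FANCB: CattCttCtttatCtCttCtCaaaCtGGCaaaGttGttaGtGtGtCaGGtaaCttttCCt
FANCM: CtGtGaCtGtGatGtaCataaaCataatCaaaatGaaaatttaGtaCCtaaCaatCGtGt
FANCE: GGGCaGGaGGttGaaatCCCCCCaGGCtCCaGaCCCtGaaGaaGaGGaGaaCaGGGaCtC
FANCF: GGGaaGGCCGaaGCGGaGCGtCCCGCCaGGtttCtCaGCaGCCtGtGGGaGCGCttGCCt
G and C made up 36.7% and 30.0% of the FANCB and FANCM stretches and 60.0% and 68.3% of those of FANCE and FANCF. Over the whole coding sequence the share was 36.5% for FANCB, 37.9% for FANCM, 41.8% for FANCL, 43.4% for FANCI, 44.2% for FANCD2, 48.6% for FANCC, 55.2% for FANCA, 57.1% for FANCG, 59.4% for FANCF and 60.3% for FANCE, beside a median of 51.7% over all genes tested at 72 h.

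Of the 10 genes, FANCG (chr9:35073835-35080004) and FANCC (chr9:95099054-95426796) share chromosome 9 with the targeted gene JAK2 (chr9:4984390-5129948), at distances of 29.9 and 90.0 Mb. The others lie on chromosomes 2 (FANCL), 3 (FANCD2), 6 (FANCE), 11 (FANCF), 14 (FANCM), 15 (FANCI), 16 (FANCA) and X (FANCB). FANCD2 has a near-identical pseudogene on the same chromosome and overlaps FANCD2OS on the opposite strand. A further 6 members (FANCA, FANCB, FANCC, FANCF, FANCL and FANCI) overlap a protein-coding gene on the opposite strand. FANCG overlaps a gene on its own strand, and FANCE and FANCM overlap no annotated gene. The counts of the overlapping members may be less certain. The overlaps are of whole gene spans, and their effect on the coding counts was not tested.

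Total counts over the kept transcripts were 689636 to 4868580 in the footprint libraries at 36 h, 3183559 to 8864461 in those at 72 h, 25095493 to 33350938 in mRNA libraries at 36 h and 33040296 to 42825661 at 72 h. dCas9 replicate e was the shallowest footprint library and held 1 count of FANCB, 4 of FANCL and 7 of FANCM. The biological coefficient of variation of footprints at 36 h was 30.0%, against 11.2% for mRNA at 36 h, 7.57% for footprints and 11.1% for mRNA at 72 h. JAK2 had 131 to 472 mRNA counts and 0 to 23 footprint counts per library and was not tested. Of 4 marker genes of this line, VIM had at least 1586 and KRT18 at least 70 counts in every library, while NEFM had 89 to 472 mRNA counts and KRT8 had 98 to 248 mRNA and 0 to 41 footprint counts at 36 h, where it was not tested. NEFM, a neurofilament gene, was lower with Cas9 in mRNA at 72 h (log2 fold change -0.89, adjusted p = 0.033), and its part in the values below was not tested. PTPRC and ALB, of blood and liver, had 0 to 22 counts.

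The 10 genes spanned a wide range of levels, with FANCI highest and FANCM lowest in mean level, in mRNA and in footprints. Levels are given as TMM-normalized CPM per kilobase of coding sequence. At 36 h the mRNA level of FANCI was 67.9, 75.0 and 77.3 in the Cas9 replicates a, b and c and 70.9 and 71.9 in the dCas9 replicates d and e, which placed it at percentile 75.5 of the tested genes. That of FANCM, the translocase, was 4.33, 4.79 and 4.30 with Cas9 and 4.80 and 4.72 with dCas9, at percentile 3.53. Between them came, by mean mRNA level at 36 h, FANCD2, FANCA, FANCL, FANCG, FANCE, FANCF, FANCC and FANCB, and neighbours in this order overlapped in their ranges over the 5 libraries except for FANCI above FANCD2, FANCF above FANCC and FANCB above FANCM. The plot of levels by library shows the same outer positions at 72 h, when FANCI was at 96.0 to 110.1 and FANCM at 4.10 to 6.59 in mRNA.

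**Figure D1:**
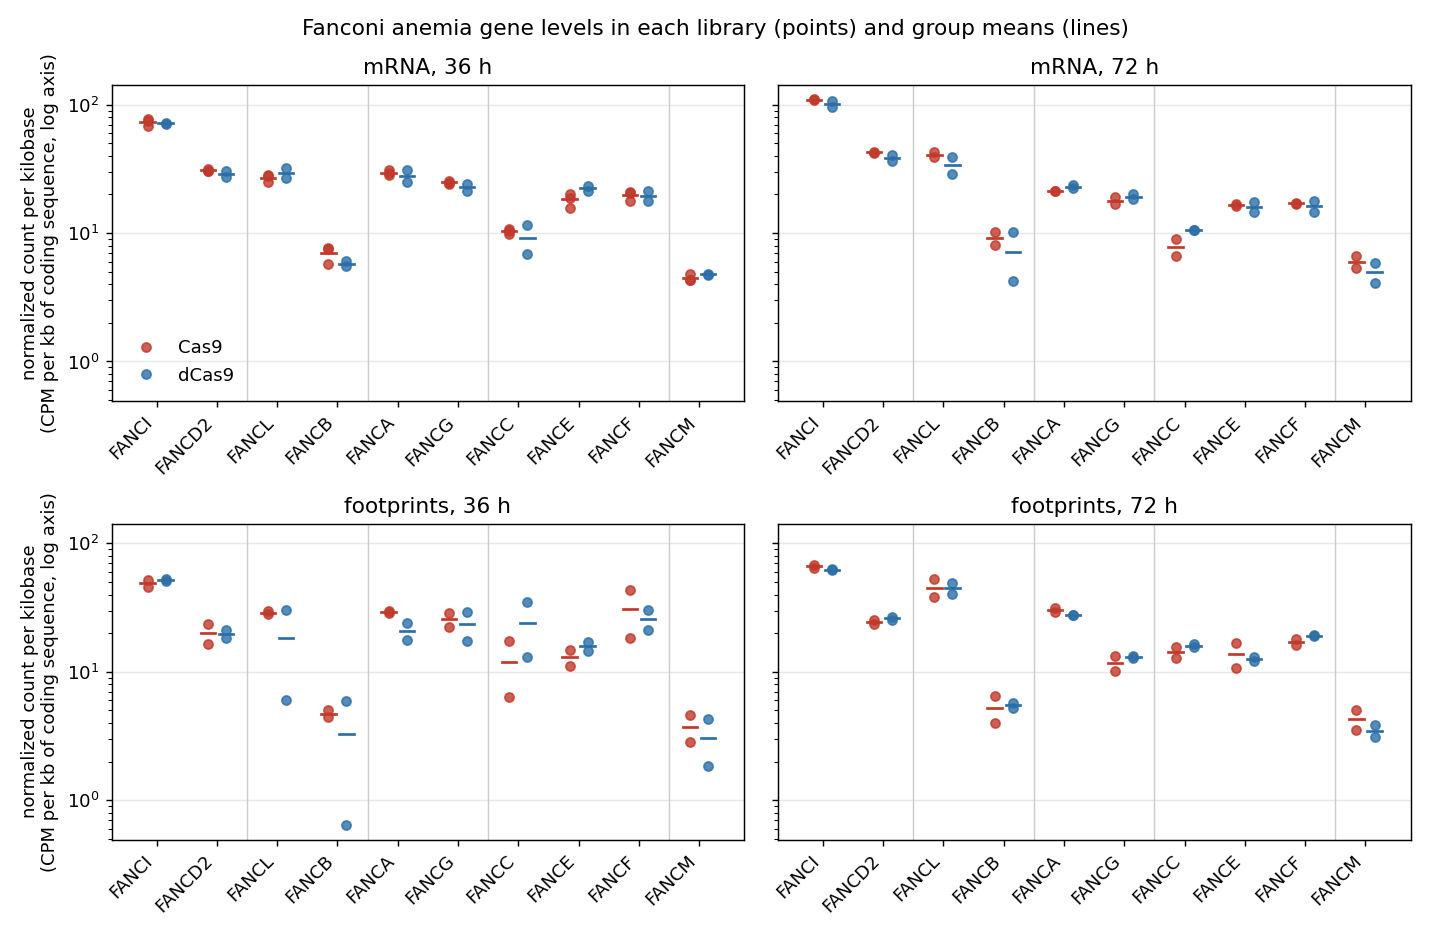
Level of each gene in mRNA (top) and footprints (bottom) at 36 h (left) and 72 h (right), in normalized counts per kilobase of coding sequence on a log axis. Points are libraries, coloured by nuclease, short lines are group means, and vertical lines separate the FANCI-FANCD2 pair, the FANCL-FANCB, FANCA-FANCG and FANCC-FANCE-FANCF modules and FANCM. FANCI stands highest in every panel, and the low point of FANCB in footprints at 36 h rests on 1 count.

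FANCI and FANCD2, which form a dimer as proteins, were not at equal levels in either kind of library. FANCD2 mRNA at 36 h was at 30.2, 30.6 and 31.7 with Cas9 and at 30.4 and 27.3 with dCas9, and at 72 h it was at 42.3 and 42.6 with Cas9 and at 36.5 and 40.7 with dCas9. FANCI exceeded it 2.25 to 2.63-fold over the 5 mRNA libraries at 36 h and 2.55 to 2.63-fold over the 4 at 72 h. In footprints, which sample the ribosomes on the message, FANCI was at 52.2 and 45.4 with Cas9 and at 51.0 and 52.5 with dCas9 at 36 h, and the excess over FANCD2 was 2.22 to 2.79-fold. At 72 h it was 2.31 to 2.75-fold. The ratio of the pair was thus above 2 in all 17 libraries, whichever nuclease was used.

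Within the core complex the members of a module also differed in level. FANCL, the catalytic subunit, exceeded its partner FANCB 3.61 to 5.76-fold in mRNA at 36 h, 3.90 to 6.84-fold in mRNA at 72 h and 7.74 to 9.44-fold in footprints at 72 h. FANCL mRNA at 72 h was at 42.9 and 38.8 with Cas9 and at 28.8 and 39.4 with dCas9, and FANCB mRNA at 10.3 and 8.07 with Cas9 and at 4.22 and 10.1 with dCas9. In both genes 1 library, dCas9 replicate a, was lowest.

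FANCA and FANCG, the scaffold pair of their module, were close in mRNA and apart in footprints at 72 h. FANCA exceeded FANCG 1.17 to 1.27-fold in mRNA at 36 h and 1.12 to 1.26-fold at 72 h. In footprints the ratio was 2.08 to 3.14 over the 4 libraries at 72 h, all above the mRNA range, and 0.60 to 1.38 at 36 h, where FANCG had 33 to 148 counts per library.

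In the FANCC, FANCE and FANCF module, FANCC had the lowest mRNA level in every library. At 36 h FANCC was at 10.5, 9.83 and 10.7 with Cas9 and at 11.5 and 6.83 with dCas9, while FANCE was at 15.8 to 23.4 and FANCF at 17.7 to 21.4. At 72 h FANCE stood at 1.37 to 2.52 times FANCC in mRNA and at 0.79 to 1.07 times FANCC in footprints, so in footprints the pair was at about the same level.

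The comparison of Cas9 with dCas9 asks whether a cut changes the expression of these genes. At 36 h no member passed the false discovery rate of 0.1 in edgeR's quasi-likelihood test, in mRNA, in footprints or in translational efficiency, which is the change of footprints beyond that of mRNA. The share of all 9016 tested genes that passed was 0% in each of these comparisons, and without adjustment 26 genes reached p under 0.05 in mRNA, 862 in footprints and 568 in translational efficiency, of which 0, 1 and 0 were members. Each gene had a single measure of spread for both library types, although footprints at 36 h varied more than mRNA (30.0% against 11.2%). The counts therefore do not compare mRNA with footprints, and intervals at 36 h may be too wide for mRNA and too narrow for footprints. DESeq2 called 46 genes in footprints, 0 in mRNA and 1 in translational efficiency, no member among them, and limma called 0 in each.

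The member nearest to a call at 36 h was FANCA, in footprints. Its footprints were at 28.6 and 30.0 with Cas9 and at 24.0 and 17.6 with dCas9, so the groups did not overlap. The log2 fold change was 0.43 ± 0.19 (SE), with a 95% confidence interval of 0.02 to 0.84 and an adjusted p of 0.49, and FANCA mRNA changed by 0.08 ± 0.14. FANCA was the only member whose footprint groups did not overlap, beside 30.4% of all tested genes.

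FANCC footprints at 36 h were at 6.42 and 17.5 with Cas9 and at 13.0 and 34.9 with dCas9, from 9 to 99 counts per library. Their log2 fold change of -0.65 had a confidence interval of -1.78 to 0.48. For FANCI, which had the most footprint counts, the interval of the footprint change was -0.39 to 0.21 and that of the mRNA change -0.20 to 0.28. In mRNA 2 members had groups that did not overlap, FANCE lower with Cas9 and FANCG higher, beside 16.9% of all genes. FANCE mRNA was at 20.2, 18.8 and 15.8 with Cas9 and at 21.4 and 23.4 with dCas9, a log2 fold change of -0.29 ± 0.22 with an adjusted p of 1.00.

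The footprint value of 1 member at 36 h depended on which dCas9 library was kept. FANCL footprints were at 28.1 and 29.8 with Cas9 and at 30.3 and 6.05 with dCas9 replicates d and e, the last from 4 counts. Without dCas9 replicate d, FANCL was called higher with Cas9 in footprints (log2 fold change 2.27, adjusted p = 0.052) and in translational efficiency (2.39, adjusted p = 0.075), in fits that called 10.2% and 5.26% of all genes and in which the lone dCas9 library was assumed to vary like the other groups. With all libraries the values were 0.32 ± 0.41 and 0.44 ± 0.50. Over 16 alternatives the footprint value of FANCL ran from -0.06 to 2.27. Over 17 alternatives its translational efficiency ran from 0.07 to 2.39. In both, FANCL was called only without replicate d.

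**Figure D2:**
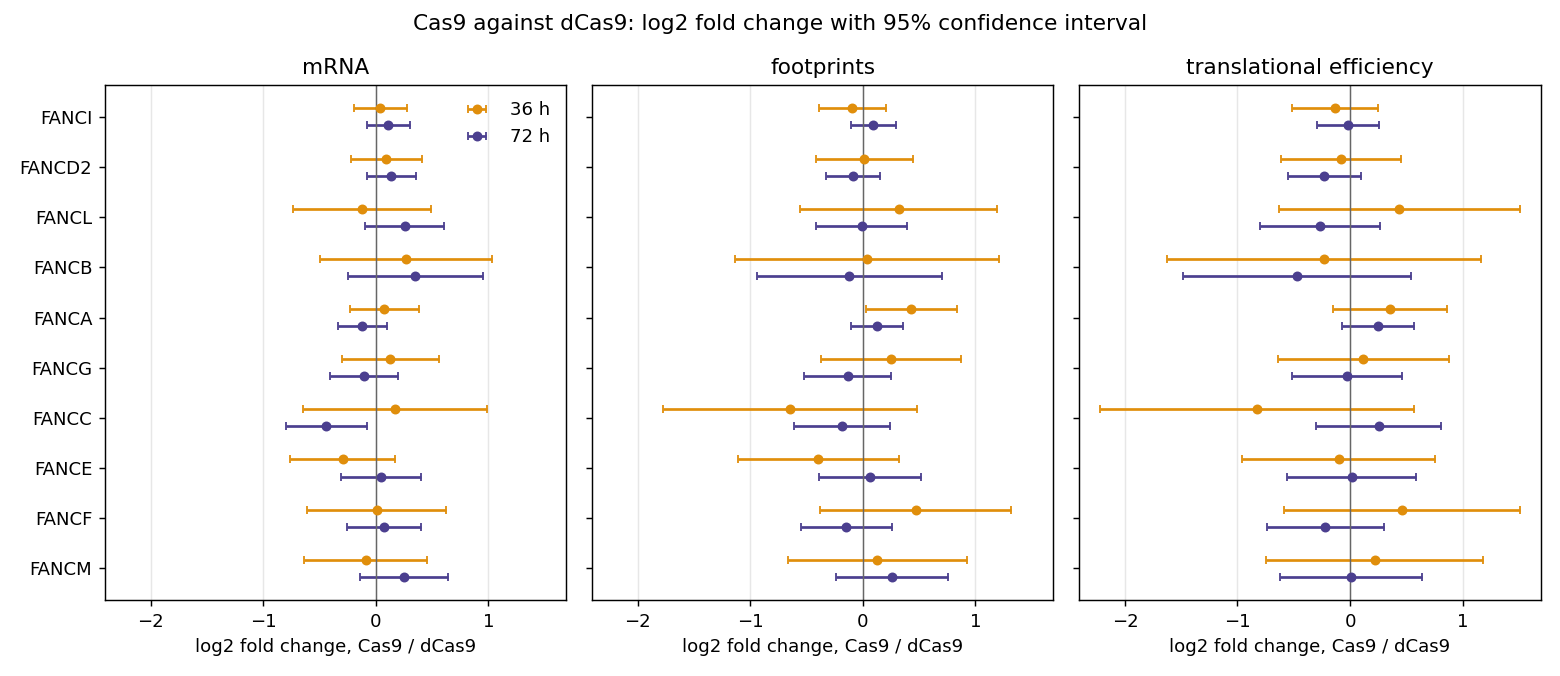
Log2 fold change of Cas9 against dCas9 for each gene in mRNA, footprints and translational efficiency at 36 h (orange) and 72 h (violet), from edgeR, with bars for the 95% confidence interval. The intervals of FANCA footprints at 36 h and FANCC mRNA at 72 h leave out 0, and no adjusted p was under 0.1. Intervals rest on a spread shared by mRNA and footprint libraries.

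At 72 h, when 5.63% of the 10896 tested genes changed in mRNA, no member passed the test in mRNA, and the member nearest to it was FANCC. FANCC mRNA was at 6.68 and 9.0 with Cas9 and at 10.6 in both dCas9 libraries. The groups did not overlap, and the log2 fold change was -0.44 ± 0.17 (95% confidence interval -0.80 to -0.08), with an adjusted p of 0.19. The size depended on the Cas9 library used, at -0.26 without Cas9 mRNA replicate a (adjusted p = 1.00) and at -0.70 without replicate b (adjusted p = 0.103, not called), the remaining Cas9 library being assumed to vary like the other groups. FANCC footprints at 72 h were at 15.6 and 12.9 with Cas9 and at 15.5 and 16.4 with dCas9, which overlap, and their log2 fold change was -0.19 ± 0.20. With offsets for G and C content FANCC mRNA was called lower (log2 fold change -0.45, adjusted p = 0.028), in a fit that called 18.0% of all genes, and likewise with the replicate block added (-0.46, adjusted p = 0.030).

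The mRNA groups of 4 members did not overlap at 72 h, FANCI and FANCD2 higher and FANCA and FANCC lower with Cas9, beside 49.5% of all tested genes. The log2 fold changes were 0.11 ± 0.09 for FANCI, 0.14 ± 0.10 for FANCD2 and -0.12 ± 0.10 for FANCA. The highest values were those of the genes poorest in G and C, with 0.35 ± 0.28 for FANCB, 0.26 ± 0.17 for FANCL and 0.25 ± 0.19 for FANCM, whose groups overlapped. Over 10856 tested genes the rank correlation of this fold change with coding G and C content was -0.41, and the trend is not particular to the members.

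In these 3 genes the dCas9 mRNA libraries at 72 h differed from each other more than the groups did. FANCB had 386 counts in dCas9 replicate a and 1136 in replicate b, against 936 and 700 in the Cas9 libraries, and after normalization replicate b was 2.39-fold above replicate a. The excess was 1.43-fold for FANCM and 1.37-fold for FANCL, and FANCE and FANCF, richest in G and C, stood at 0.84 and 0.83 times replicate a. Over 10856 tested genes, the log2 difference between these libraries had a rank correlation of -0.83 with coding G and C content, and over the 10 members of -0.98, as the plot against composition shows. The genes share libraries and are not independent, so the correlations describe these 2 libraries only. Other replicate mRNA libraries also differed with composition: at 36 h the rank correlation was -0.54 for Cas9 replicates a and b and -0.61 for a and c. It was -0.02 for the dCas9 mRNA libraries at 36 h and 0.09 for the Cas9 mRNA libraries at 72 h.

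**Figure D3:**
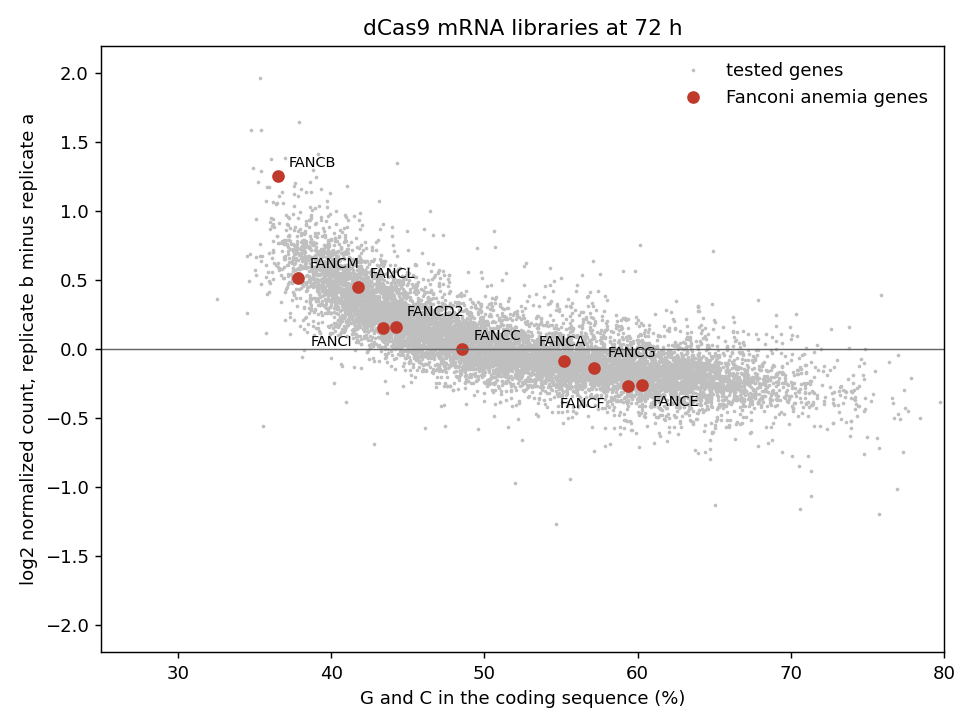
Log2 difference in normalized mRNA count between dCas9 replicates b and a at 72 h against the share of G and C in the coding sequence. Gray points are 10856 tested genes and red points the Fanconi anemia genes, which run from FANCB (1.25 at 36.5%) down to FANCF (-0.27 at 59.4%) and FANCE (-0.26 at 60.3%).

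Leaving out dCas9 mRNA replicate b, so that replicate a alone stood for dCas9, called 4 members in mRNA at 72 h, and 22.7% of all genes. An arm of 1 library has no spread of its own, so these p-values assume that it varied like the other groups. FANCB was higher with Cas9 (log2 fold change 1.06, adjusted p = 0.0035), as were FANCL (0.44, adjusted p = 0.062) and FANCM (0.48, adjusted p = 0.075), and FANCC was lower (-0.50, adjusted p = 0.087). In the same fit, translational efficiency was called lower for FANCB (-1.20, adjusted p = 0.040) and for 9.77% of all genes in either direction. With all libraries and the offsets for G and C, FANCC was the only one of the 10 genes called in mRNA. FANCB, FANCL and FANCM were each called in 1 of 19 alternatives, the fit without replicate b, which gave their highest values. Over the 19 alternatives the log2 fold change ran from -0.13 to 1.06 for FANCB. It ran from 0.06 to 0.44 for FANCL and from 0.004 to 0.48 for FANCM.

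In footprints at 72 h no member passed the test, and 0% of all genes did. The median of the members' log2 fold changes was -0.05, beside 0.00 over all genes, and 397 genes, no member among them, had an unadjusted p under 0.05, while DESeq2 and limma called 0. The groups of FANCA, FANCI and FANCF did not overlap, 3 members beside 31.8% of all genes, with FANCA and FANCI higher and FANCF lower with Cas9. FANCI footprints were at 68.2 and 64.8 with Cas9 and at 61.8 and 62.8 with dCas9, a log2 fold change of 0.09 with an interval of -0.11 to 0.29. FANCD2 footprints, at 25.5 and 23.6 with Cas9 and at 26.7 and 25.4 with dCas9, gave an interval of -0.33 to 0.15. Both intervals leave out a change of the pair's footprints beyond 0.33 on the log2 scale in either direction.

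Translational efficiency at 72 h changed in 0.716% of all genes and in no member, with log2 fold changes of the members from -0.47 ± 0.48 (FANCB) to 0.26 ± 0.26 (FANCC). FANCD2 was at -0.23 ± 0.15 and FANCA at 0.25 ± 0.15, and the intervals of all 10 included 0. FANCI was at -0.02 ± 0.13, with an interval of -0.29 to 0.26.

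Footprints against mRNA in dCas9 cells give each gene's ribosome load relative to the typical gene in cells that were electroporated and not cut. FANCI and FANCD2 carried fewer footprints per mRNA than the typical gene at both time points, and FANCC carried more, but none of these calls at 36 h held under every alternative. Offsets for G and C ended those of FANCI and FANCD2 (adjusted p = 0.23 and 0.18), and the replicate block that of FANCC (adjusted p = 0.16). Under the 17 alternatives at 36 h, FANCI was called in 15 and FANCD2 and FANCC in 13 each. Values are log2 ratios, with medians over all genes of -0.01 at 36 h and -0.06 at 72 h. FANCI was at -0.47 ± 0.13 at 36 h (adjusted p = 0.011) and at -0.70 ± 0.09 at 72 h (adjusted p = 5.5e-06). FANCD2 was at -0.59 ± 0.18 (adjusted p = 0.019) and at -0.57 ± 0.11 (adjusted p = 0.00019). FANCC was at 1.17 ± 0.48 (adjusted p = 0.064) and at 0.59 ± 0.18 (adjusted p = 0.0087).

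At 36 h these were the members called, 2 lower and 1 higher of 10, beside 24.6% of all genes called lower and 23.6% called higher. At 72 h 4 members were lower, adding FANCG (-0.56 ± 0.16, adjusted p = 0.0051) and FANCM (-0.52 ± 0.20, adjusted p = 0.036), and 3 were higher, adding FANCL (0.39 ± 0.17, adjusted p = 0.061) and FANCA (0.27 ± 0.11, adjusted p = 0.035), beside 37.8% and 32.7% of all genes. The members' counts were near those shares. Not all of these calls at 72 h held under the 18 alternatives, which include leaving out single libraries. FANCD2 was called in 17 of them, with values of -0.60 to -0.16, and FANCL in 16, with values of 0.24 to 0.96. FANCA was called in 15, with values of 0.22 to 0.38. FANCM was called in 13, with values of -0.68 to -0.22. FANCE and FANCF, the other subunits of the FANCC module, were at -0.33 ± 0.18 and 0.24 ± 0.17 at 72 h and were not called.

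**Figure D4:**
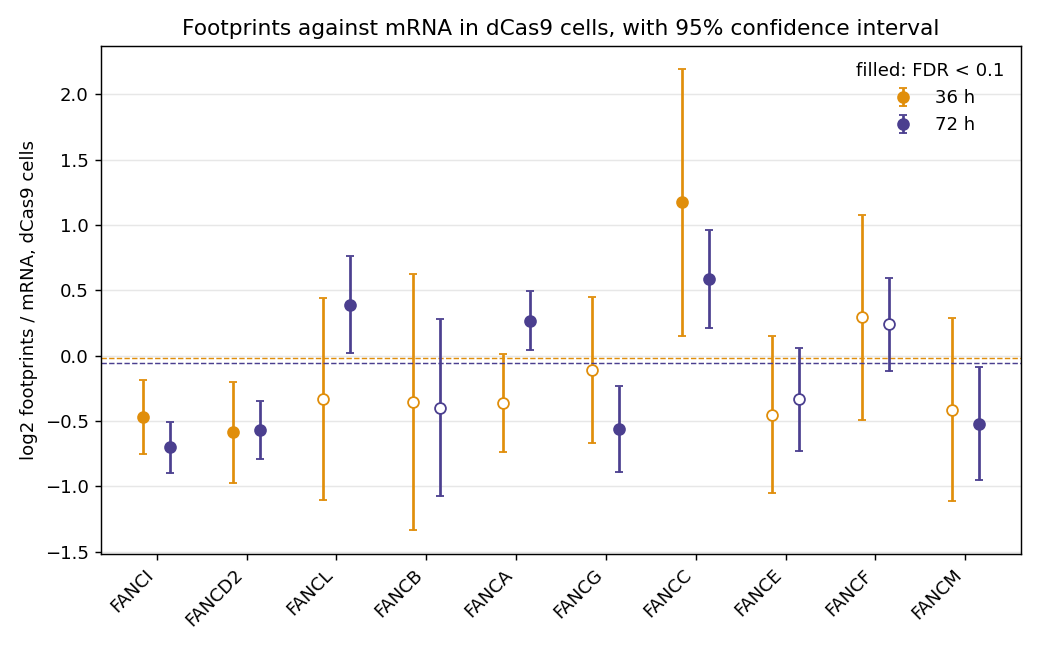
Log2 ratio of footprints to mRNA in dCas9 cells for each gene at 36 h (orange) and 72 h (violet), from edgeR, with 95% confidence intervals. Filled points passed a false discovery rate of 0.1, open points did not, and dashed lines mark the medians over all tested genes. FANCI and FANCD2 lie below the lines and FANCC above them at both time points.

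Libraries of the same letter at 36 h were taken to come from the same lysate. In them the footprint level of FANCI was 0.77 and 0.59 times its mRNA level with Cas9 and 0.72 and 0.73 times with dCas9. For FANCD2 these ratios were 0.78 and 0.52 with Cas9 and 0.60 and 0.77 with dCas9, so the 8 values of the pair were all below 1. FANCC was at 0.61 and 1.64 with Cas9 and at 1.13 and 5.11 with dCas9, and the highest of these came from replicate e, with 35 footprint counts. Without that footprint library, FANCC was at 0.51 at 36 h on the log2 scale and was not called, while FANCI (-0.48) and FANCD2 (-0.66) were. FANCD2 in turn was not called without dCas9 footprint replicate d or without dCas9 mRNA replicate d. With the replicate block, which ties the libraries of a lysate, FANCC was at 1.22 with an adjusted p of 0.16.

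FANCA and FANCL, called higher at 72 h, had values below 0 at 36 h, at -0.36 ± 0.18 (adjusted p = 0.12) and -0.33 ± 0.36, which were not called. The time points differ in guide, aligner and annotation, and the difference between them was not tested.

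Ribosome load moved with composition over all genes, with rank correlations of 0.26 at 36 h and 0.35 at 72 h between the log2 ratio and coding G and C content. The offsets were fitted to each library against the mean of mRNA and footprint libraries together. They thus also take out any link of ribosome load itself with composition, and cannot tell it from a difference between libraries. With offsets for G and C, FANCI and FANCD2 were at -0.20 (adjusted p = 0.23) and -0.32 (adjusted p = 0.18) at 36 h and were no longer called. At 72 h they remained called at -0.29 (adjusted p = 0.00078) and -0.16 (adjusted p = 0.055), nearer to 0 than without offsets. FANCC, at 1.40 (adjusted p = 0.030) and 0.86 (adjusted p = 2.2e-05), FANCL, at 0.81 at 72 h (adjusted p = 1.2e-06), and FANCG, at -0.70 at 72 h (adjusted p = 2.8e-05), moved further from 0. FANCE was called with offsets, at -0.63 at 36 h (adjusted p = 0.068) and -0.57 at 72 h (adjusted p = 0.0016). At 72 h FANCA stayed called, at 0.22 (adjusted p = 0.018), and FANCM, at -0.22 (adjusted p = 0.14), did not. With a variance for each library type in limma, every member called at either time point without offsets was called again.

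The other genes of the pathway were described from lists of 25 genes that assist the core complex, remove the ubiquitin, cut at the crosslink or act in recombination downstream. Of these, 21 were tested at 36 h and 24 at 72 h, and none passed the test against dCas9 in mRNA, footprints or translational efficiency at either time. The median log2 fold change of their mRNA at 72 h was 0.10, beside 0.02 over all genes and 0.09 over the 10 members. FAAP100, which holds the FANCB-FANCL module together, was at 0.04 ± 0.13 in mRNA and -0.09 ± 0.16 in footprints at 72 h. USP1, the enzyme that takes ubiquitin off FANCD2, was at 0.24 ± 0.21 and 0.01 ± 0.24. FAN1, a nuclease that binds ubiquitinated FANCD2, was at 0.16 ± 0.16 and 0.15 ± 0.23, and at 36 h its footprints were at -1.16 ± 0.53 (adjusted p = 0.51). UBE2T, which supplies the ubiquitin, was not analysed here.

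Ribosome load in dCas9 cells was lower than that of the typical gene for 7 and higher for 3 of the 21 genes at 36 h, beside 24.6% and 23.6% of all genes, and for 13 and 5 of the 24 at 72 h, beside 37.8% and 32.7%. The medians were -0.46 and -0.48, beside -0.01 and -0.06 over all genes. These values are without offsets for G and C, although ribosome load moved with composition over all genes. The part of composition in them was not tested. The lowest called were PALB2, which brings BRCA2 to breaks, at -1.99 ± 0.34 at 36 h and -2.02 ± 0.17 at 72 h, and CENPS at -2.08 ± 0.23 at 72 h. FAN1 was at -1.90 ± 0.19 at 72 h, XRCC2 at -1.77 ± 0.23 at 72 h, and SLX4, a scaffold of nucleases, at -1.74 ± 0.29 at 36 h. FAAP100 was at -1.05 ± 0.28 and -0.85 ± 0.15 and USP1 at -0.85 ± 0.22 at 72 h. Also called lower were BRCA1, at -0.77 ± 0.18 at 36 h and -1.12 ± 0.13 at 72 h, and MAD2L2, at -0.74 ± 0.21 at 36 h. WDR48 was at -0.61 ± 0.14 at 72 h. CENPX, which binds FANCM together with CENPS, was higher at both time points, at 1.49 ± 0.32 and 1.74 ± 0.16, as were SLX1A and SLX1B, at 1.21 ± 0.30 and 1.31 ± 0.18. SLX1A and SLX1B are near-identical copies whose counts had the same lowest, median and highest values, so they are 1 measurement that enters the counts of higher genes as 2. Of 8 genes of end joining, which repairs breaks without a template, 7 were tested and none passed against dCas9, and NHEJ1 alone was called for ribosome load, at 0.61 ± 0.17 at 72 h.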

How the data were processed

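The authors removed adapters, aligned reads with hisat2 at 36 h (HISAT2 2.1.0 in the submitters' processing notes) and tophat at 72 h on different GENCODE releases, and deposited whole counts of reads per transcript, not normalized, beside the counted coding length. A read can be counted on several transcripts, and strand use in counting was not given in the sources used here. Transcripts were matched by identifier to GENCODE release 44, and the transcript with the highest summed count was kept per gene and time point. Each time point was fitted in edgeR 4.0.16 (R 4.3.3) with a mean for each nuclease and library type, TMM normalization, the quasi-likelihood test and Benjamini-Hochberg adjustment over the genes whose counts averaged 20 or more in each library type (9016 and 10896 genes, all 10 members). All members are named, and other lists by counts, by up to 3 called genes and by USP1, FAAP100 and FAN1. UBE2T was planned as well but was not analysed. Members and lists were chosen with earlier results of these data known.

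Alternatives were DESeq2 1.42.0, other size factors, no minimum, each library type alone, other transcripts, offsets for G and C (lowess, span 0.3), the replicate block and leaving out each library. Added after seeing the data were limma 3.58.1 (voom with a variance for each library type) and a crossed block. Scripts were tested on simulated data. A letter was taken to link both libraries of a lysate at 36 h, as the methods say that lysates were divided. The deviations of such libraries correlated at only 0.01 to 0.07, so the counts themselves do not show this link. At 72 h letters are shared within a library type only. Replicates are as the labels name them, and p-values measure only the spread between these libraries. In the reported fit that spread was taken for each gene over the mRNA and footprint libraries of a time point together. No footprint library of the third Cas9 lysate at 36 h was used here.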

Additional observations from a re-analysis of the deposited data

How the results depend on the processing

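Of 1050 values of the members in the comparisons of Cas9 with dCas9 under the alternatives, 9 were called where the reported fit called none. Of 350 values of footprints against mRNA, 21 lost and 13 gained a call, and none of the called values changed sign. FANCI, FANCC and FANCG were called at 72 h in all 18 alternatives. Leaving out 1 library gave 0 to 1 called members in footprints and translational efficiency at 36 h, 0 to 4 in mRNA and 0 to 1 in translational efficiency at 72 h, and 2 to 6 and 4 to 8 for footprints against mRNA at 36 and 72 h. The 6 came without dCas9 footprint replicate d at 36 h and the 4 without dCas9 footprint replicate e at 72 h. With the replicate block and offsets for G and C, 0 members were called for footprints against mRNA at 36 h, and 1, FANCC, in mRNA at 72 h, as with the offsets alone. The cause of these changes was not tested.

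Counts over all genes moved more. In footprints at 36 h, 46 genes were called by DESeq2, 1 with offsets, 21 without a minimum and 0 to 918 with 1 library left out. In mRNA at 36 h, 2 were called with each library type alone and 2 without a minimum. In translational efficiency at 36 h, 1 was called by DESeq2 and 0 to 474 with 1 library left out. In footprints at 72 h, 1 was called with offsets, 1 with crossed pairs, 4 with each library type alone, 2 without a minimum, 1 with median-ratio size factors, 4 with replicate block and offsets and 0 to 1 with 1 library left out. In mRNA at 72 h, 1959 were called with offsets, 1134 with crossed pairs, 293 with mRNA alone, 2118 with replicate block and offsets, 535 with the replicate block alone and 110 to 2472 with 1 library left out. In translational efficiency at 72 h, DESeq2 called 221, offsets 605, crossed pairs 249, no minimum 260, limma 136, median-ratio size factors 170, replicate block and offsets 762, and leaving out 1 library 1 to 1065. At 72 h libraries of the same letter had deviations correlated at -0.14 in mRNA and 0.01 in footprints. The sources used here do not say that these letters pair libraries, and they are not taken to do so.

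Each group had 2 or 3 libraries. In 3 of the 4 footprint libraries at 36 h, FANCB, FANCC, FANCE, FANCF, FANCG, FANCL and FANCM had 1 to 108 counts. For these genes, changes inside the confidence intervals drawn in the plot of fold changes are not excluded by these libraries.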
